A study of Mus musculus with 6 samples.

Results

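Igf2 and 9 other imprinted genes of growth control were followed in mouse kidney with and without an active Notch2 transgene. The members were Igf2, H19, Igf2r, Cdkn1c, Dlk1, Meg3, Peg3, Mest, Plagl1 and Grb10. They were chosen by symbol, with a higher Igf2 in the transgenic kidneys already known, among the 19658 genes with a value in the table. A row was matched for 8 of the 10. H19 and Meg3, both annotated by RefSeq as long non-coding RNAs, were not analysed here, and whether H19 moved with Igf2 was therefore not measured. RNA came from whole mouse kidney at postnatal day 3, in 3 wild type samples and 3 R26NICD2/+Kspcre samples, shortened to NICD2. R26NICD2/+ is 1 copy of an allele at Rosa26 that carries the intracellular, active part of Notch2. Kspcre drives Cre from the Ksp-cadherin (Cdh16) promoter, which is active in kidney tubule epithelium, while whole kidney was sequenced. Nothing in the labels states that replicates are different animals. Genes of the Y chromosome, given below, show that NICD2 replicate 3 did not come from the same animal as NICD2 replicates 1 and 2. For the rest this cannot be told. The p-values here reflect how far these samples vary, and part of that variation may be technical.

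Imprinted genes are expressed mainly from the copy inherited from 1 parent. Igf2, active on the paternal copy, encodes insulin-like growth factor 2, the main fetal IGF, which acts through the receptors Igf1r and Insr and whose transcript normally declines after birth. Igf2r, active on the maternal copy, encodes the receptor that takes Igf2 up and delivers it to lysosomes. H19 lies beside Igf2, is active on the maternal copy and shares enhancers with it. Cdkn1c, which encodes the cyclin-dependent kinase inhibitor p57, and Grb10, which encodes an adaptor that dampens insulin and IGF signalling, are maternally expressed growth restrainers. Dlk1, Peg3, Mest and Plagl1 are paternally expressed. Plagl1 is a zinc finger transcription factor known to act on several of the others, which is why they are often described as an imprinted gene network. FPKM (fragments per kilobase of transcript, scaled to the mapped fragments of the library) sum both parental copies, so the values below say nothing of allele use.

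Igf2 is at chromosome 7, 142650768 to 142666816 on the minus strand (GRCm38, as the table gives it), and Cdkn1c is at 143458339 to 143461073, with 794.3 kb between their start sites. RefSeq places H19 on the other side of Igf2, at 142575530 to 142578146. Peg3 is on the same chromosome at 6703892 to 6730441, Mest on chromosome 6 at 30733506 to 30748466, Plagl1 on chromosome 10 at 13090788 to 13131694, Grb10 on chromosome 11 at 11930499 to 12037422 and Igf2r on chromosome 17 at 12682406 to 12769706. The table places Dlk1 on a scaffold outside the chromosomes (79545 to 89434), while RefSeq has it on chromosome 12.

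RefSeq (GRCm38.p6) gave 15 promoters for 8 of the members, Meg3 included and H19 and Cdkn1c not, each 250 bases before to 50 bases after a start site. Igf2 had 4 of them, in which 2 letter patterns were searched on both strands. GTGGGAA is the core to which RBPJ binds, the DNA-binding partner of the Notch intracellular domain, and GGGGCCCC is a pattern bound by Plagl1. No window held both patterns. GTGGGAA was in 1 of the 15, the most upstream Igf2 promoter, and in 6.38% of all 32851 promoters. GGGGCCCC was in 1 of the 15, that of Peg3, and in 1.08% of all. Both stretches are shown because they hold these matches, in capitals, and end at the base before the start site. The Igf2 match begins 48 bases upstream of the start and is on the gene's strand. The Peg3 match begins 201 bases upstream, and its pattern reads the same on both strands. The stretches are the minus strand of chr7:142666817-142667066 and of chr7:6730420-6730669. A match is a description of the letters and not evidence of binding.
Igf2 upstream: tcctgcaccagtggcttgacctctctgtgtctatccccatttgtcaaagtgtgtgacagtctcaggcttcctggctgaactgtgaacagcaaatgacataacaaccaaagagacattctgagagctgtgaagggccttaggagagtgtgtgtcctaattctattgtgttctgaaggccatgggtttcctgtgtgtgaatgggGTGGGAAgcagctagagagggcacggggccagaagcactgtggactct
Peg3 upstream: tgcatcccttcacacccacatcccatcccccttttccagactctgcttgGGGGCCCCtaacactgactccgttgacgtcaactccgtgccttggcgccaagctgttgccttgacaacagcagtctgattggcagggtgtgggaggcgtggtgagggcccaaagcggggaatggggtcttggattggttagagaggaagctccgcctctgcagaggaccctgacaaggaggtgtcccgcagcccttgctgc

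The libraries were alike in depth, at an estimated 15650000 to 16900000 fragments. The table row for human Notch2, taken as the transgene, held at most 0.03 FPKM in the wild type libraries and 75.4, 79.6 and 60.2 FPKM in the NICD2 libraries. Kidney epithelial markers such as Umod, Slc34a1, Aqp2 and Pax2 were above 0 in every library. Of these, named after their values were seen, Umod was called higher in NICD2 and Slc34a1, Aqp2 and Pax2 lower (limma). Libraries stood apart in 2 ways. NICD2 replicate 3 had 0 FPKM of Ddx3y, Eif2s3y, Kdm5d and Uty, all on the Y chromosome, where every other library had at least 4.56 FPKM of each. It thus held no detected male RNA, while NICD2 replicates 1 and 2 and all wild type libraries did. Sex therefore differed within the NICD2 group, and its part in the values was not tested. Adrenal gland genes were high in 4 libraries and low in wild type replicate 3 and NICD2 replicate 1: 10 adrenal cortex markers summed to 173 to 176 FPKM in the 4 and to 25.1 and 13.01 FPKM in those other two. Adrenal medulla markers (7) summed to 74.8 to 90.8 FPKM in the 4, and to 10.2 and 5.28 FPKM in wild type replicate 3 and NICD2 replicate 1. Most of the sums in wild type replicate 3 and NICD2 replicate 1 came from Akr1b7 (cortex list, 17.3 and 9.94 FPKM) and Slc18a1 (medulla list, 8.77 and 5.08 FPKM). Over all libraries Akr1b7 was at 9.94 to 20.2 FPKM and Slc18a1 at 5.08 to 8.77 FPKM. Each genotype thus had 2 libraries with adrenal RNA and 1 with little. In whole-kidney samples, fewer cells of a type and less RNA per cell cannot be told apart.

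Igf2 was the member that differed most between the genotypes. The wild type libraries had 90.2, 76.0 and 68.3 FPKM, and the NICD2 libraries 201, 260.1 and 199.7 FPKM. Every NICD2 library was above every wild type library. The means were 78.2 ± 11.1 and 220.3 ± 34.5 FPKM (SD, n = 3 per group), 2.82-fold higher in NICD2, with a log2 fold change of 1.48 ± 0.13. Log2 fold changes here are NICD2 minus wild type on log2(FPKM + 1), ± SE from a limma fit over the 13765 genes that reached 1 FPKM in 3 or more libraries. This contrast had a part in the choice of the members, so their values are a description and carry no test. The authors' deposited table gave Igf2 a log2 fold change of 1.48.

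The Igf2 ratio was similar with and without adrenal RNA. Among the 4 libraries with adrenal RNA, Igf2 averaged 83.1 FPKM in wild type and 229.9 FPKM in NICD2, a ratio of 2.77. Between the other two libraries it was 68.3 and 201 FPKM, a ratio of 2.95. With the mean level of the adrenal cortex markers as a covariate, an alternative added after seeing the data, the log2 fold change of Igf2 was 1.49 ± 0.11. Over all genes, 4.93% were called higher and 3.86% lower. Of the stromal markers, 10 of 10 had a negative fold change, 1 (Foxd1) was called lower (limma, adjusted p = 0.025), and their sum was 1055 to 1234 FPKM in wild type and 930.4 to 1106 FPKM in NICD2. Endothelial markers had 4 of 8 called lower, with sums of 336 to 367 FPKM in wild type and 267 to 297 FPKM in NICD2. Summed nephron progenitor markers were at 23.1 to 28.5 and 20.7 to 21.6 FPKM. Summed cell cycle markers were at 194.6 to 243 and 261 to 321 FPKM, with Cdk1 the 1 gene of 10 called higher (adjusted p = 0.0328). All 10 had a positive fold change, with a median log2 fold change of 0.38. By limma, 9 of the 10 had an unadjusted p under 0.05, against 25.1% of all genes. The part of these cell types in the Igf2 level was not tested.

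**Figure D1:**
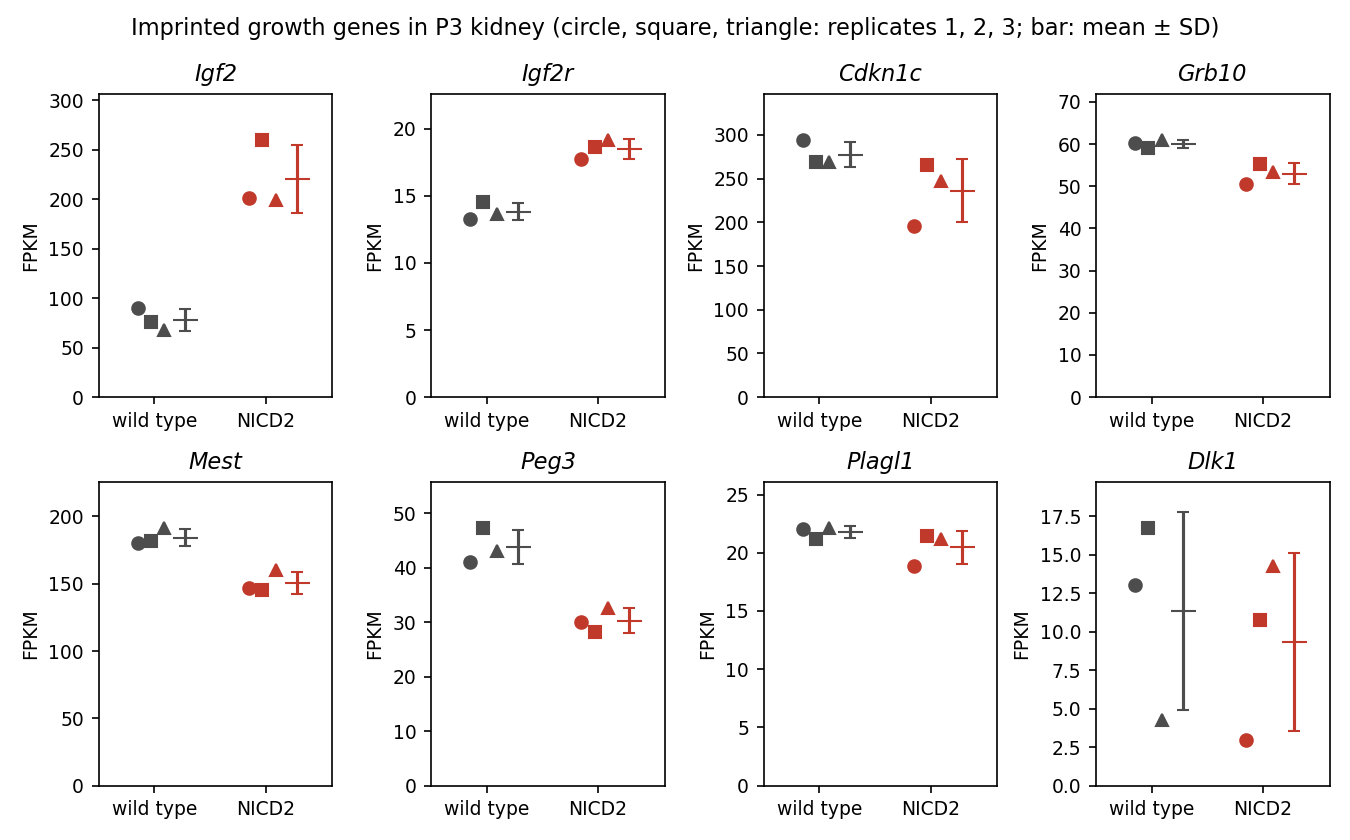
FPKM of the 8 members with a row, 1 panel per gene with its own axis from 0. Circles, squares and triangles are replicates 1, 2 and 3 of wild type (grey) and NICD2 (red), and bars are the mean ± SD (n = 3). Igf2 at 199.7 to 260.1 FPKM in NICD2 stands above 68.3 to 90.2 FPKM in wild type, and Dlk1 is low in wild type replicate 3 and NICD2 replicate 1.

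The receptor Igf2r, which clears Igf2, was also higher in NICD2, by less. It was at 13.3, 14.5 and 13.6 FPKM in wild type and at 17.7, 18.6 and 19.2 FPKM in NICD2, without overlap. The ratio of the means was 1.34 and the log2 fold change 0.40 ± 0.07. Within the libraries with adrenal RNA the ratio was 1.36, and between those with little it was 1.30.

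Of the maternally expressed restrainers, Cdkn1c was the most abundant member in both groups. Its values were 294, 269 and 269 FPKM in wild type and 196, 266 and 248 FPKM in NICD2. The groups did not overlap, but NICD2 replicates 2 and 3 came close to the wild type range, and the log2 fold change was -0.24 ± 0.11. Without NICD2 replicate 1, the lowest, it was -0.11 ± 0.09. The ratio was 0.911 with adrenal RNA and 0.727 between the libraries with little. Grb10 was at 60.1, 59.1 and 61.0 FPKM in wild type and at 50.4, 55.3 and 53.3 FPKM in NICD2, lower in each NICD2 library, with a log2 fold change of -0.18 ± 0.06.

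The paternally expressed Peg3, a zinc finger protein gene, was lower in NICD2. Its values were 41.1, 47.2 and 43.0 FPKM in wild type and 30.0, 28.2 and 32.7 FPKM in NICD2, with a ratio of 0.691 and a log2 fold change of -0.52 ± 0.08. Mest, which encodes a hydrolase-like protein abundant in mesenchyme, was at 180.0, 182 and 191 FPKM in wild type and at 147, 146 and 160.2 FPKM in NICD2, a log2 fold change of -0.29 ± 0.06. Both were lower without overlap, the opposite direction to Igf2 although all are paternally expressed. Plagl1 overlapped between groups, at 22.1, 21.2 and 22.1 FPKM in wild type and 18.9, 21.4 and 21.2 FPKM in NICD2, with a log2 fold change of -0.09 ± 0.07.

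Dlk1, which encodes a transmembrane protein of the Notch ligand type that lacks the domain for binding Notch in the usual way, overlapped widely. It was at 13.1, 16.7 and 4.25 FPKM in wild type and at 2.95, 10.8 and 14.2 FPKM in NICD2. The low value in each group belonged to the library with little adrenal RNA. Dlk1 is known to be expressed in adrenal gland. Its mean over the 4 libraries with adrenal RNA was 13.7 FPKM and over the other two 3.60 FPKM, a ratio of 3.80, while the same ratio lay between 0.988 and 1.16 for the remaining 7 members. Between genotypes Dlk1 had a log2 fold change of -0.30 ± 0.55. With the adrenal covariate it was -0.24 ± 0.13, with a smaller standard error. Without wild type replicate 2 the sign turned (0.05), as it did without NICD2 replicate 1 (0.29).

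**Figure D2:**
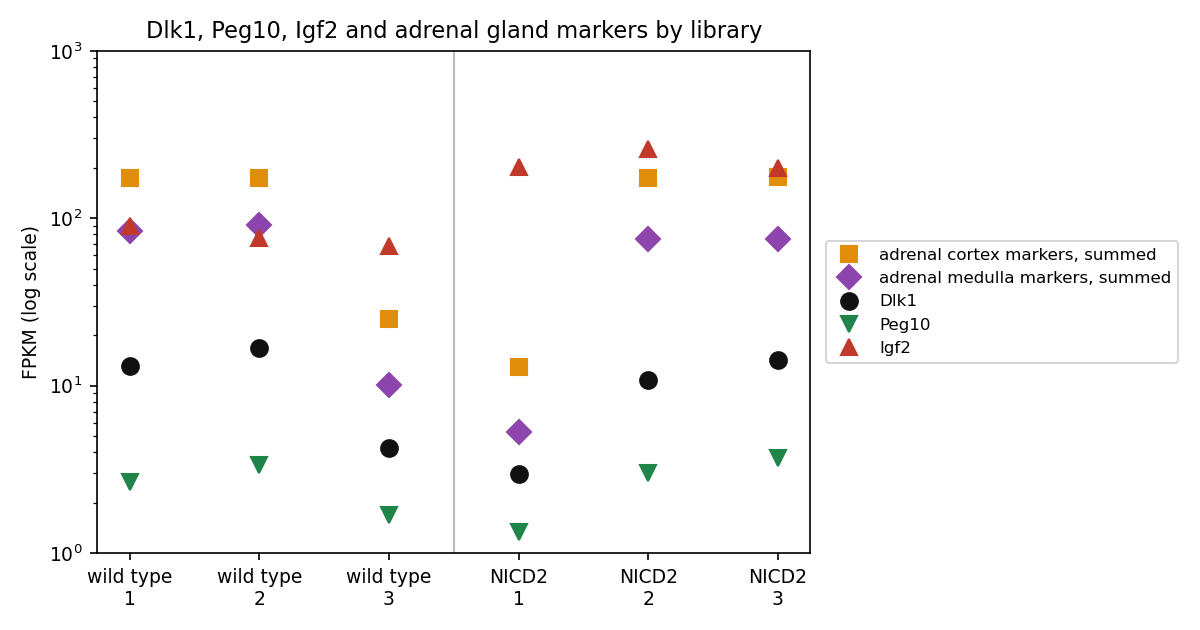
FPKM on a log axis in each of the 6 libraries, wild type on the left and NICD2 on the right, for summed adrenal cortex markers (squares), summed adrenal medulla markers (diamonds), Dlk1 (circles), Peg10 (downward triangles) and Igf2 (upward triangles). Dlk1 and Peg10 were lowest in the libraries with little adrenal RNA, wild type replicate 3 and NICD2 replicate 1, while Igf2 was at 201 FPKM in the latter.

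Of the 8 members, all were tested genes, 2 were higher and 2 lower by the threshold of the fit over all genes (Benjamini-Hochberg adjusted p under 0.05), and 6 had groups that did not overlap. Over all 13765 genes, 8.79% were called (4.93% higher and 3.86% lower), and 30.5% had groups that did not overlap. The median log2 fold change was -0.21 over the members and -0.01 over all genes. Because the contrast was known when the members were chosen, nothing is read from these counts.

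The order of the levels changed at 1 place. In wild type it was Cdkn1c, Mest, Igf2, Grb10, Peg3, Plagl1, Igf2r and Dlk1, from 277 to 11.3 mean FPKM, and Igf2r and Dlk1 were the neighbours whose ranges overlapped. In NICD2 Igf2 stood second, and its range overlapped that of Cdkn1c (196 to 266 FPKM). Plagl1 and Igf2r also overlapped there. The coefficient of variation within a group was 14.2% and 15.6% for Igf2 in wild type and NICD2, 56.5% and 62.1% for Dlk1, and between 1.61% and 7.45% for the others, except Cdkn1c in NICD2 at 15.3%.

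The genes around Igf2 and Cdkn1c were examined by position, a choice made after the values were seen. From 500 kb before Igf2 to 500 kb past Cdkn1c the table has 30 genes, of which 21 were tested, 19 of them not members. Of the 19, Ifitm10 and Kcnq1 were called higher and Slc22a18 lower, against 4.93% higher and 3.86% lower over all genes. Ifitm10, at -293.0 kb in the plot of the region, was at 1.41, 0.89 and 0.77 FPKM in wild type and 3.28, 3.48 and 2.57 FPKM in NICD2 (limma, adjusted p = 0.00377). It reached 1 FPKM in 3 libraries only through its NICD2 values, so nothing is read from its call. Among genes of the region below the filter and not tested, Syt8 was higher in NICD2 without overlap (means of 0.52 FPKM in wild type and 1.20 FPKM in NICD2). Tspan32 (0.58 and 0.18 FPKM), Trpm5 (0.61 and 0.29 FPKM) and Tnfrsf26 (0.74 and 0.56 FPKM) were lower without overlap. Of all tested genes, 30.5% had groups that did not overlap, and nothing is read from these low values. Kcnq1, a potassium channel gene listed as active on the maternal copy, begins 439.9 kb from Igf2. Kcnq1 was at 9.16, 8.03 and 8.78 FPKM in wild type and 20.8, 13.9 and 15.6 FPKM in NICD2 (log2 fold change 0.86 ± 0.13, adjusted p = 0.00543). Slc22a18, an organic cation transporter gene beside Cdkn1c, was called lower, at 15.8 ± 2.35 and 11.1 ± 1.32 FPKM (adjusted p = 0.0398), a call lost without wild type replicate 1 or 2, without NICD2 replicate 1 or 3 (adjusted p from 0.0779 to 0.121), under the replicate block (0.0606) and when low values were not filtered (0.0875). Ins2, which starts 12.9 kb from Igf2, had at most 0.51 FPKM in any library and was not tested. Th, between Igf2 and Kcnq1, is one of the adrenal medulla markers and followed them, at 7.81, 11.4 and 0.29 FPKM in wild type and 0, 8.64 and 8.18 FPKM in NICD2. On the other side, Mrpl23 and Lsp1 overlapped between groups, with log2 fold changes of 0.08 ± 0.12 and -0.08 ± 0.11.

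**Figure D3:**
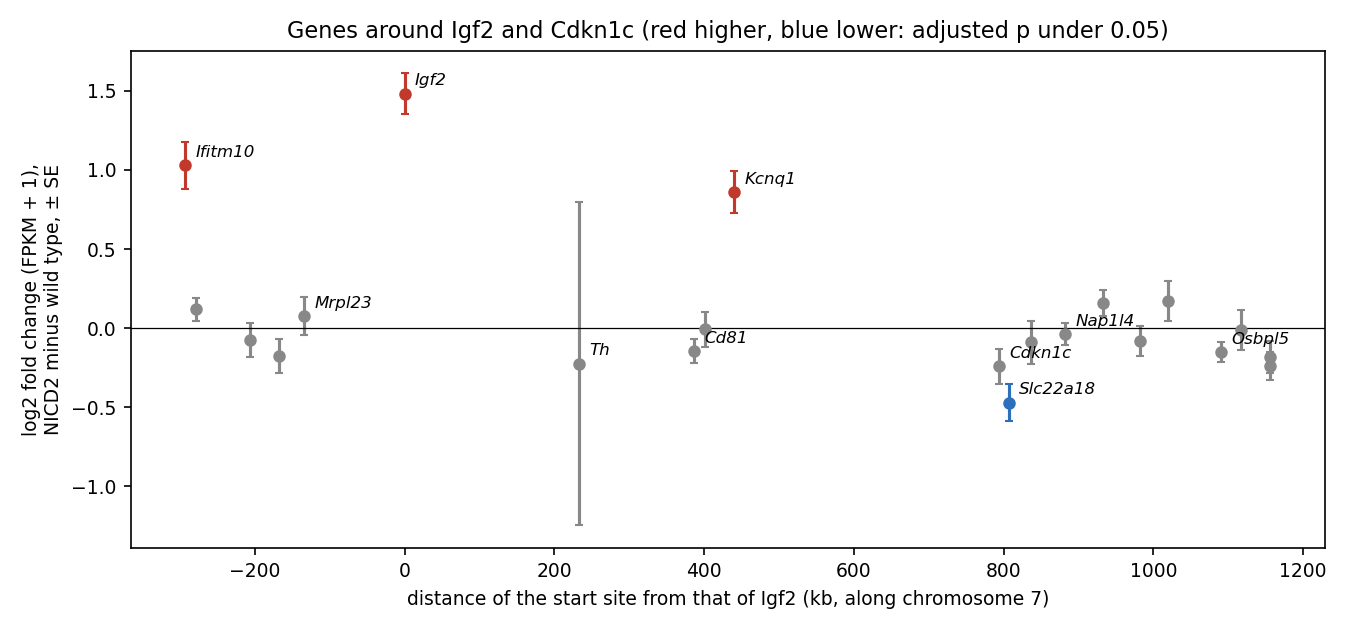
Log2 fold change (NICD2 minus wild type, ± SE) of the 21 tested genes around Igf2 and Cdkn1c against the distance of each start site from that of Igf2 in kb. Igf2 (1.48), Ifitm10 (1.03) and Kcnq1 (0.86) are in red, Slc22a18 (-0.47) is in blue, and Th and Cd81, between Igf2 and Kcnq1, lie below 0, Th with a wide error bar. The colour of Igf2, a member, carries no test, and Ifitm10 met the filter only through its NICD2 values.

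In other clusters, a called neighbour went the opposite way beside Grb10 and Igf2r and the same way beside Peg3. Beside Grb10, the actin nucleator gene Cobl rose from 9.80 ± 1.42 to 26.4 ± 1.06 FPKM (limma, adjusted p = 0.000106). Grb10 was lower in each NICD2 library, by little (log2 fold change -0.18 ± 0.06). Ddc, a listed imprinted enzyme gene on the other side of Grb10 and closer to it than Cobl, was not called. It overlapped between groups, at 5.14 ± 1.40 FPKM in wild type and 4.93 ± 1.21 FPKM in NICD2 (adjusted p = 0.912). Beside Igf2r, the cation transporter gene Slc22a2 fell from 17.5 ± 0.39 to 13.2 ± 0.522 FPKM (adjusted p = 0.00676), whereas Igf2r was higher. Zim1, a zinc finger gene in the Peg3 cluster, fell like Peg3, from 6.77 ± 0.956 to 3.50 ± 1.03 FPKM (adjusted p = 0.021), a call lost without wild type replicate 2 or 3 (adjusted p = 0.0875 and 0.0574) and when low values were not filtered (0.0626). Copg2, whose gene meets the end of Mest, was at 18.4 ± 1.21 and 19.2 ± 1.24 FPKM (adjusted p = 0.695). Rtl1, the neighbour of Dlk1 on the scaffold, had at most 0.38 FPKM.

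Among 62 other imprinted genes listed, 51 had a row and 37 were tested. Of the 37, 3 rose and 3 fell, 16.2% against 8.79% over all genes, and the median log2 fold change was -0.04. The list holds genes that are imprinted only in some tissues, and no list test was made. From the paternally expressed genes 1 of 13 was called, Slc38a4, an amino acid transporter. It was at 9.28, 9.18 and 12.6 FPKM in wild type and 50.5, 33.1 and 38.3 FPKM in NICD2, 3.93-fold higher without overlap (log2 fold change 1.87 ± 0.16, adjusted p = 0.000270). Ndn and Nnat, the others of the 3 most abundant, were not called, Ndn with 30.1 ± 3.62 FPKM in wild type and 26.7 ± 1.67 FPKM in NICD2, and Nnat with 28.8 ± 4.84 and 27.0 ± 4.02 FPKM (adjusted p = 0.324 and 0.741). From the maternally expressed genes 2 of 24 rose, Cobl and Kcnq1, and 3 fell, Slc22a2, Zim1 and Slc22a18. The most abundant of these, Gnas, Cd81 and Gatm, were not called (adjusted p = 0.394, 0.271 and 0.52). Gnas, which encodes the stimulatory G protein subunit, was at 836 ± 39 and 774.9 ± 19.4 FPKM. The 3 rises were called under all 12 alternatives.

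As for Dlk1, the low libraries of some of these genes were those with little adrenal RNA. Peg10, Nap1l5 and Ddc, named after their values were seen, were lowest in wild type replicate 3 and NICD2 replicate 1. Peg10 averaged 3.19 FPKM in the libraries with adrenal RNA and 1.52 FPKM in the remaining libraries. Nap1l5 averaged 1.53 and 0.55 FPKM, and Ddc 5.65 and 3.80 FPKM. Ddc kept 3.96 FPKM in wild type replicate 3 and 3.64 FPKM in NICD2 replicate 1, where Th was at 0.29 and 0 FPKM. Nnat and Mkrn3 were also lowest in these libraries, by less (ratios of 1.29 and 1.20), as were Rtl1 and Kcnk9, which were below the filter. The share of all genes with this order was not worked out here. For Slc38a4 the ratio of NICD2 to wild type was 3.87 with adrenal RNA and 4.01 without.

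**Figure D4:**
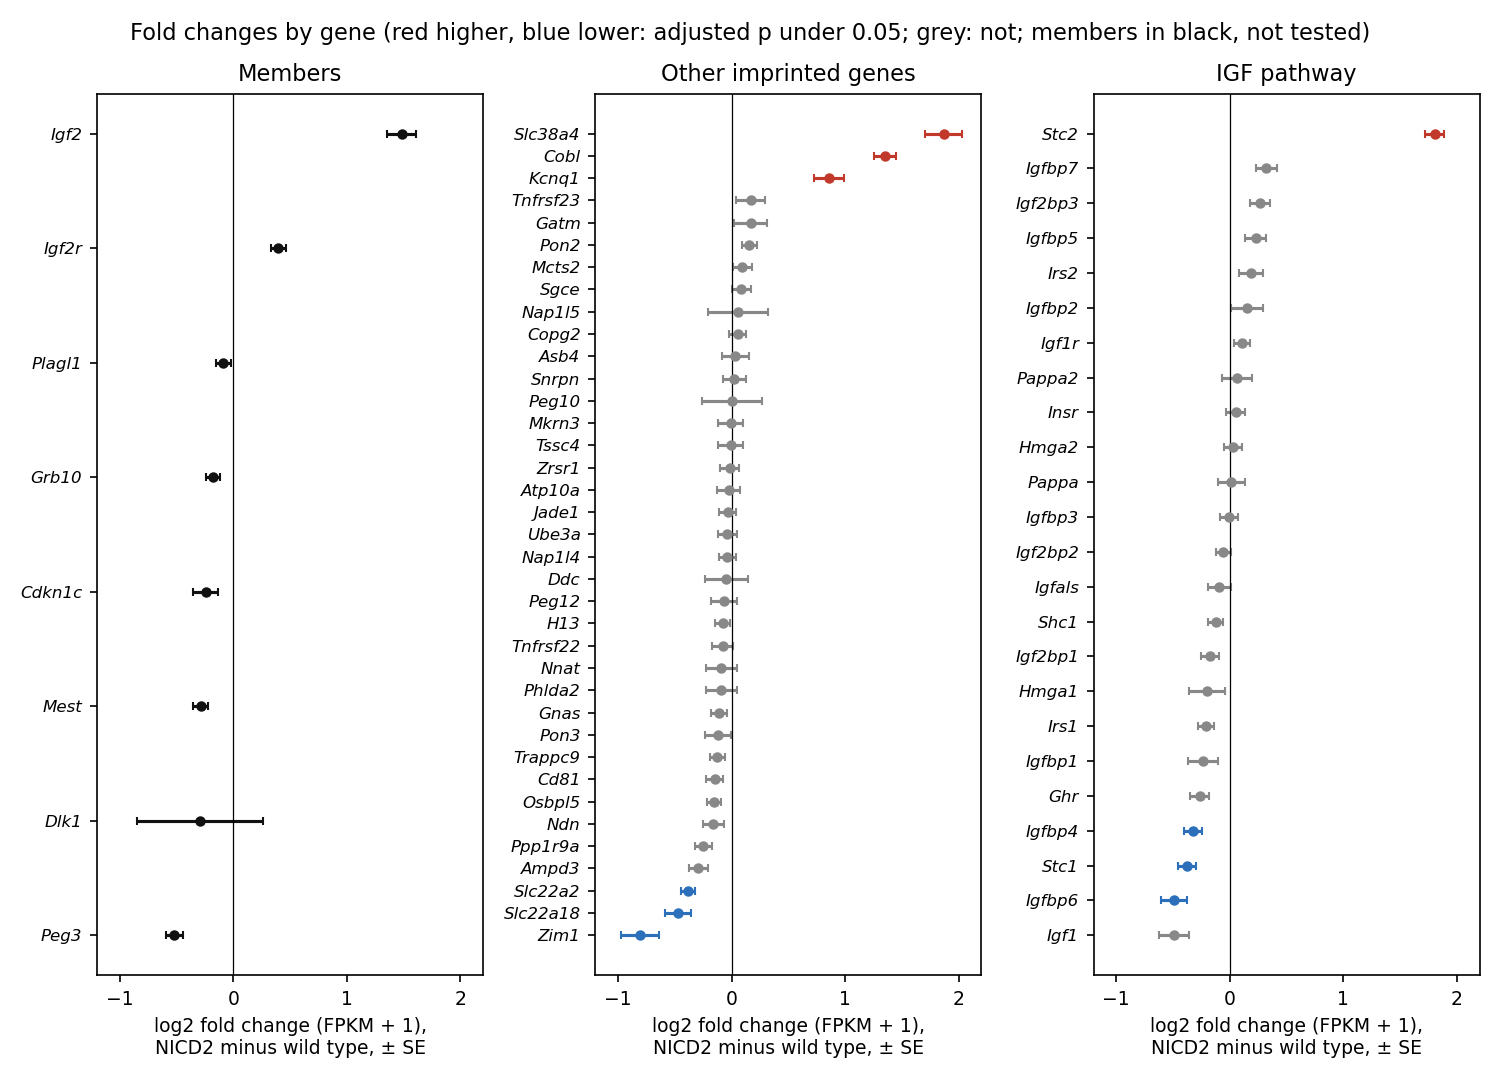
Log2 fold change (NICD2 minus wild type, ± SE) of each tested member, other imprinted gene and IGF pathway gene, sorted within each panel. Members are in black and carry no test. Among the rest, red is higher and blue lower at an adjusted p under 0.05, with Slc38a4 (1.87) and Stc2 (1.80) at the top and Zim1 (-0.81) and Igf1 (-0.49, not called) at the bottom.

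In the IGF pathway, 24 of 29 listed genes were tested, of which 1 rose and 3 fell, 16.7% against 8.79% over all genes, with a median of -0.03. None of 7 ligands, receptors and adaptors was called by limma, and 3 had an unadjusted p under 0.05, as had 25.1% of all genes. Igf1r, the signalling receptor for Igf2, was at 18.6, 21.1 and 19.5 FPKM in wild type and 20.5, 21.2 and 22.4 FPKM in NICD2 (log2 fold change 0.11 ± 0.07, adjusted p = 0.389). The adaptor Shc1 was at 41.2 ± 2.04 and 37.7 ± 2.21 FPKM (adjusted p = 0.296). Ghr, the growth hormone receptor, had 38.2 ± 3.94 FPKM in wild type and 31.6 ± 1.56 FPKM in NICD2 (adjusted p = 0.0917). Igf1, the other ligand, named after its values were seen, was at 14.4, 16.7 and 17.8 FPKM in wild type and 9.39, 10.8 and 13.9 FPKM in NICD2. Its groups did not overlap and it missed the threshold (log2 fold change -0.49 ± 0.13, adjusted p = 0.057), which it passed under the replicate block (0.0173) and without NICD2 replicate 3 (0.0135).

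Binding proteins, which hold IGFs in the extracellular space, and their proteases had 4 of 12 members called, 33.3% against 8.79% over all genes. Stc2, an inhibitor of the protease pregnancy-associated plasma protein A that frees IGFs from Igfbp4, rose. It was at 3.60, 4.33 and 3.43 FPKM in wild type and 16.0, 15.5 and 15.4 FPKM in NICD2, 4.13-fold higher (log2 fold change 1.80 ± 0.09, adjusted p = 1.10e-05). Its relative Stc1, which inhibits the same protease, fell, at 7.78 ± 0.327 and 5.75 ± 0.468 FPKM (adjusted p = 0.0215). Igfbp4 itself fell, at 321, 302 and 299.8 FPKM in wild type and 221, 252 and 263 FPKM in NICD2 (adjusted p = 0.0393), and so did Igfbp6, which prefers Igf2 over Igf1, at 7.86 ± 1.1 and 5.30 ± 0.667 FPKM (adjusted p = 0.0362). The 3 falls were less firm than the rise: none was called when wild type replicate 2 or NICD2 replicate 2 was dropped or when low values were not filtered, Igfbp6 alone was called without wild type replicate 3, and Stc1 alone without NICD2 replicate 1, without wild type replicate 1 or under the replicate block (Igfbp4 0.0708 and Igfbp6 0.0738, adjusted p). Without NICD2 replicate 3, Stc1 was not called (adjusted p = 0.069). Igfbp7, the most abundant, was at 702 ± 48 and 879.7 ± 89.8 FPKM without overlap (adjusted p = 0.0756), and Igfbp3 at 212 ± 19.2 and 210.2 ± 3.02 FPKM (adjusted p = 0.972).

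**Figure D5:**
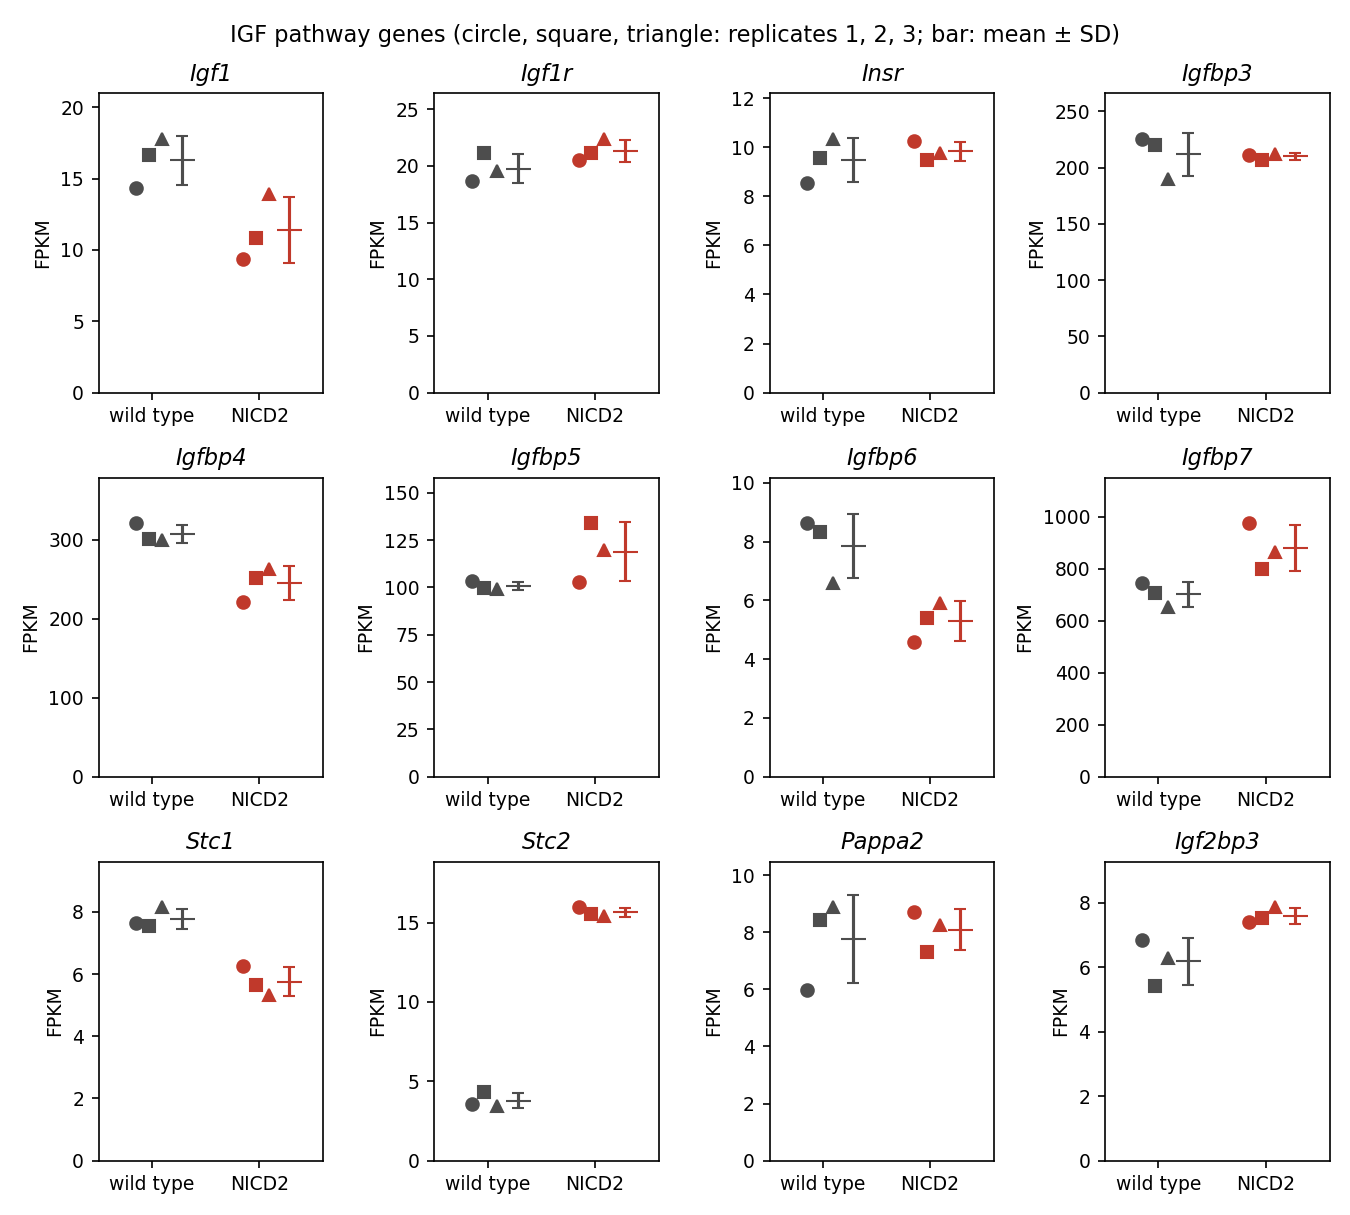
FPKM of 12 IGF pathway genes, 1 panel per gene with its own axis from 0, with circles, squares and triangles for replicates 1, 2 and 3 and bars for the mean ± SD (n = 3). Stc2 lies at 15.4 to 16.0 FPKM in every NICD2 library against 3.43 to 4.33 FPKM in wild type, while Igf1r, Insr and Igfbp3 overlap between the groups.

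Of 5 tested Igf2 mRNA binding and fetal growth regulators, none was called by limma, and 1 had an unadjusted p under 0.05, against 25.1% of all genes. That was Igf2bp3, at 6.84, 5.41 and 6.28 FPKM in wild type and 7.40, 7.51 and 7.86 FPKM in NICD2 (adjusted p = 0.107). Igf2bp2 and Hmga1, the most abundant of the list, were not called (adjusted p = 0.65 and 0.478), Igf2bp2 with 14.3 ± 0.558 FPKM in wild type and 13.7 ± 0.595 FPKM in NICD2, and Hmga1 with 14.7 ± 3.32 and 12.6 ± 2.18 FPKM. Of 18 tested imprint control factors, 1 was called, 5.56% against 8.79% over all genes. This was Uhrf1, which guides maintenance of DNA methylation and is also a gene of dividing cells, at 21.1 ± 0.788 and 28.9 ± 4.9 FPKM (adjusted p = 0.0476). The call held in 1 of the 6 fits that dropped a library, the one without NICD2 replicate 3, and was lost under the replicate block (adjusted p = 0.0699), the adrenal covariate (0.0627) and no filter (0.0959). Ctcf, the insulator protein that separates Igf2 from its enhancers on the maternal copy, was at 40.5 ± 3.19 and 39.4 ± 1.11 FPKM (adjusted p = 0.791). Trim28 and the cohesin subunit Rad21 were not called (adjusted p = 0.762 and 0.664), Trim28 with 90.6 ± 3.97 FPKM in wild type and 93.3 ± 6.33 FPKM in NICD2, and Rad21 with 101.6 ± 5.92 and 106 ± 8.36 FPKM.

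The genes whose profile was most like that of Igf2 over the 6 libraries were Hsd17b14, Wnt7b, Gper1, Slc1a4 and H2-Q7. Likeness was the root mean square difference of log2(FPKM + 1) after centring each gene on its own mean, over 11870 named genes whose mean was at least 2 FPKM in each group. It was 0.11 for Hsd17b14, a steroid dehydrogenase gene, which was at 17.8, 11.3 and 10.98 FPKM in wild type and 36.6, 45.9 and 36.2 FPKM in NICD2. Wnt7b, a ligand of the collecting duct epithelium, followed at 0.12, with 11.6, 12.1 and 9.97 FPKM in wild type and 30.5, 34.3 and 30.8 FPKM in NICD2. The other three ranged from 0.17 to 0.19. H2-Q7 belongs to a family of near-identical genes and its value is uncertain. Among the genes described above, Cobl was 17th and Stc2 19th in this order, and Igf2r, the nearest member, was 403rd. The profile is dominated by the difference between the genotypes, and the libraries are shared by all genes.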

How the data were processed

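RNA of 3 wild type and 3 NICD2 whole-kidney samples was made into libraries by the TruSeq RNA protocol of Illumina, per the labels. That kit does not mark strand, so Igf2, Igf2r, Kcnq1 and other genes with antisense partners cannot be separated from them. The deposited table holds FPKM for each library, computed by the authors to 2 decimals, the authors' mean FPKM per group, and a log2 fold change deposited by the authors from a DEGseq comparison, per the file headers. It also holds a transcript length, another deposited value. Bowtie 0.12.2 and mm8 are named in the submitters' processing notes, but the table's coordinates match GRCm38. The FPKM program and the handling of reads matching several genes were not given in the sources used here. Of 23669 rows, 4010 held no FPKM. Columns comparing pairs of samples (27) were not used.

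Depth was estimated as the library size at which FPKM of short genes with 1 transcript, after 110 bases were taken off the length, gave whole fragments: 79.7% to 82.3% of low values lay within 0.15 of a whole number (30.0% by chance). Values were set to log2(FPKM + 1) and genes reaching 1 FPKM in 3 or more libraries were compared by limma 3.58.1 under R 4.3.3 (trended variance, two-sided, Benjamini-Hochberg over 13765 genes, all 6 libraries, threshold 0.05). limma was tested on simulated data. Python 3.11.15 with pandas 2.3.3 and matplotlib 3.10.9 made the tables and figures.

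The members and lists were chosen with earlier results of these data known. Named were all members, the called genes and the 3 most abundant tested genes of each list, imprinted neighbours of members, and the 5 genes most like Igf2. Other genes were picked with their values in view, the rest of the IGF pathway plot and the chromosome 7 region included. Of the other marker lists, none was called among tested markers of liver (3), skeletal muscle (1), fat (5), immune cells (6), red blood cells (3) and nephron progenitors (6). Adrenal cortex markers had 0 of 9 called, and adrenal medulla markers 1 of 6 (Slc18a1, lower). With so few tested, no call is not a finding of no difference. Fat markers had 5 of 5 negative fold changes and nephron progenitor markers 5 of 6. In both lists, 3 had an unadjusted p under 0.05 (limma), against 25.1% of all genes. Alternatives were another pseudocount, no filter, 2 scalings, a replicate block, each library left out, and, added after seeing the data, an adrenal covariate. Counts over the kidney epithelial marker list are not reported here.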

Additional observations from a re-analysis of the deposited data

How the results depend on the processing

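Slc38a4, Cobl, Kcnq1, Slc22a2 and Stc2 kept their direction and call under all 12 alternatives. The log2 fold change of Igf2, given as a description, lay between 1.36 and 1.59. Of the comparisons of single genes with an alternative, 187 kept their direction and their call or lack of one, 39 lost a call and 2 reversed. The 187 include Cdkn1c, Plagl1, Grb10 and Dlk1, which had no call to lose. Members are part of this tally and carry no test. Both reversals were of Dlk1 (0.05 when wild type replicate 2 was left out, 0.29 when NICD2 replicate 1 was, and -0.82 to 0.29 over the libraries). Leaving out 1 library gave 377 to 568 genes called higher and 215 to 391 lower (679 and 531 with all), 2 members higher in each fit and 1 to 2 lower, 3 other imprinted genes higher in each and 1 to 3 lower, 1 IGF pathway gene higher in each and 0 to 3 lower, and 0 to 2 imprint control factors higher and 0 to 1 lower. The lowest counts over all genes were without wild type replicate 2 (388 and 215) and NICD2 replicate 1 (377 and 289). They were 448 and 305 without wild type replicate 3, and 411 higher without NICD2 replicate 2. With no filter on low values, 1 other imprinted gene, 0 IGF pathway genes and 0 imprint control factors were called lower, lower and higher. With the adrenal covariate, 0 imprint control factors were called higher, and 666 and 553 genes in all. The cause of these shifts was not tested.

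With the replicate number as a block, 616 genes were called higher and 439 lower, 2 members each way, 3 other imprinted genes higher and 2 lower, 1 IGF pathway gene higher and 2 lower (Stc1 and, not called without the block, Igf1), and 0 imprint control factors higher. The numbers are not said to pair the samples: same-numbered libraries deviated from their group means with correlations of -0.03, 0.06 and -0.05 across genes, and none correlated best with its own number. Both scalings moved the median over all genes by less than 0.1. Depth is least able to show differences for genes near 1 FPKM, such as Mkrn3 or Nap1l5.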
